A study of Caenorhabditis elegans with 22 samples.

Results

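The comparison described here sets embryos of *Caenorhabditis elegans* mutant for ssu-1 against wild-type embryos after exposure to high salt. It consists of 6 of the 22 libraries of the series, 3 from ssu-1 mutants and 3 from wild type, all kept at 500 mM NaCl, chosen by their labels alone. Embryos were held for 3 h at the stated NaCl concentration before RNA was extracted and sequenced as strand-specific, paired-end mRNA libraries, and the question was which transcripts in salt-stressed embryos differ when ssu-1 is mutant. Wild type is the Bristol strain N2. For the ssu-1 libraries the labels list the alleles fc73, n5883, tm1117, gk266317, gk747222, gk876992 and gk319712 together with zIs356, a transgene that expresses GFP-tagged DAF-16 from the daf-16 promoter and carries rol-6 as its marker. This reads like a list of strains, and the study's account of its RNA-seq gives the mutant as ssu-1(fc73). The same experiment also has 2 wild-type and 2 ssu-1 libraries at 50 mM NaCl, which served to show whether a difference was present without salt stress. A separate experiment with 3 wild-type and 3 daf-16 libraries at 500 mM NaCl served as the nearest comparison, with daf-16 labelled as m26 and mu86 and given as m26 in the account of the RNA-seq. Values are FPKM, mapped fragments scaled by transcript length and by the library's total, so that levels can be compared between genes.

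SSU-1 is a cytosolic sulfotransferase, an enzyme class that transfers a sulfonate group to small molecules such as steroid hormones and thereby changes their activity or stability. In the worm it is expressed in the ASJ pair of sensory neurons, which sense the environment and take part in the decision to enter or leave the dauer stage. DAF-16 is the FOXO transcription factor that is held in the cytoplasm by insulin-like signaling and enters the nucleus when that signaling falls, where it raises genes of stress resistance and metabolism. Osmotic stress itself makes worms accumulate glycerol, which is made by glycerol-3-phosphate dehydrogenases such as GPDH-1.

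Genes with at least 1 FPKM in at least 2 of the 10 libraries of the experiment, 13924 in all, were tested with limma on log2(FPKM + 1), and a gene was called when the p-value adjusted by the Benjamini-Hochberg method was under 0.05. Differences on this scale understate the change of genes near 1 FPKM. The libraries at 500 mM NaCl held an estimated 21.1 to 29.3 M mapped fragments, and wild-type replicate 2 was the deepest. Wild-type replicate 1 stood apart on the second principal component (17.8, against -10.6 to 6.93 in the other 5 libraries). It also had the highest summed FPKM of 24 transcripts of early, maternally supplied RNA, 507.5 against 386.5 and 266.8 in wild-type replicates 2 and 3 and 269.7 to 332.8 in ssu-1. Of these 24 genes 22 were on the lower side in ssu-1, and 0 were called by limma, 0 also at an unadjusted p under 0.05. Over all 13924 genes tested, 5875 had a negative and 8049 a positive difference, and 19.1% had an unadjusted p under 0.05. Among markers of the cell types of the embryo, 15 of 15 neuronal genes had a positive difference (median log2 difference 0.17), with 0 called and 6 at an unadjusted p under 0.05, and their summed FPKM was 932.6 to 1003 in wild type and 1014 to 1109 in ssu-1. The same held for 8 of 8 pharyngeal genes (0.28), with 0 called and 5 at an unadjusted p under 0.05, at summed values of 663.3 to 851.1 in wild type and 856.0 to 944.9 in ssu-1. At 50 mM NaCl these medians had the opposite sign, at -0.21 for the neuronal and -0.21 for the pharyngeal genes. So did the median of the maternal genes, at -0.27 at 500 mM and 0.29 at 50 mM. The other cell types differed from neurons and pharynx. At 500 mM 7 of 14 muscle and 9 of 12 intestinal genes had a positive difference (medians -0.0 and 0.07). For 9 of 13 epidermal and 9 of 10 germline genes it was negative (medians -0.06 and -0.11). Of these 4 lists, 1 muscle and 1 intestinal gene were called, both lower, beside 2.82% lower of all genes tested. Summed FPKM of 26 sperm genes was 1.82 to 3.66 in all 6 libraries and that of 6 yolk protein genes 1.51 to 2.04, so adult transcripts were near 0. The part of embryo stage or cell composition in the differences below was not tested, and in whole embryos fewer cells of a type and less RNA per cell cannot be told apart.

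The labelled genes were examined first. ssu-1 itself was at 2.83, 2.99 and 2.74 FPKM in the wild-type libraries at 500 mM NaCl and at 1.64, 1.74 and 1.21 FPKM in the mutant libraries. The mutant transcript was therefore lower but still present, with no overlap between the groups (log2 difference -0.61, SE 0.15, adjusted p = 0.0441). The call was lost when any of the 6 libraries was left out, with adjusted p = 0.0993, 0.141 and 0.0807 without wild-type replicates 1, 2 and 3 and 0.0956, 0.0776 and 0.164 without ssu-1 replicates 1, 2 and 3. Of the transgene genes, rol-6, a cuticle collagen gene, was under 1 FPKM in all 10 libraries, at 0.62 to 0.82 in wild type and 0.26 to 0.61 in ssu-1 at 500 mM NaCl, and was not tested. daf-16 was at 161, 163 and 157 FPKM in wild type and 112, 106 and 115 FPKM in ssu-1 (log2 difference -0.53, SE 0.05, adjusted p = 4.06e-05). Neither gene carried by zIs356 was higher at 500 mM in the libraries labelled with it.

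At 500 mM NaCl the largest differences between ssu-1 and wild type were losses, and fewer genes rose by more than 2-fold. Among the strongest losses were those of T23F2.4, of sod-5 and sod-3, which encode superoxide dismutases, of the small heat shock gene hsp-16.21, of lea-1, whose product resembles the late embryogenesis abundant proteins of desiccation-tolerant plants, and of djr-1.2, a gene of the DJ-1 family. More than 2-fold here means a call with a difference beyond 1 on the log2(FPKM + 1) scale, not a ratio of mean FPKM. By this limit 127 genes fell (0.912% of the genes tested) and 48 rose (0.345%). In each of these the 3 mutant libraries lay outside the range of the 3 wild-type libraries, and over all genes tested they lay below it for 9.12% and above it for 16.2%. With each of the 6 libraries left out in turn, 102 of the 127 and 34 of the 48 remained past both limits in every fit. With 0.1 added to FPKM in place of 1, 163 genes were lower and 103 higher past 2-fold, so the ratio of losses to gains depends on this setting. The counts without the 2-fold limit were 392 lower (2.82%) and 394 higher (2.83%), and they moved with single libraries. The number lower was 258 without ssu-1 replicate 2, and the number higher was 262 and 162 without wild-type replicates 1 and 2 and 155, 237 and 170 without ssu-1 replicates 1, 2 and 3. The median log2 difference over all genes tested was 0.02, and 2657 genes (19.1%) had an unadjusted p under 0.05.

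**Figure D1:**
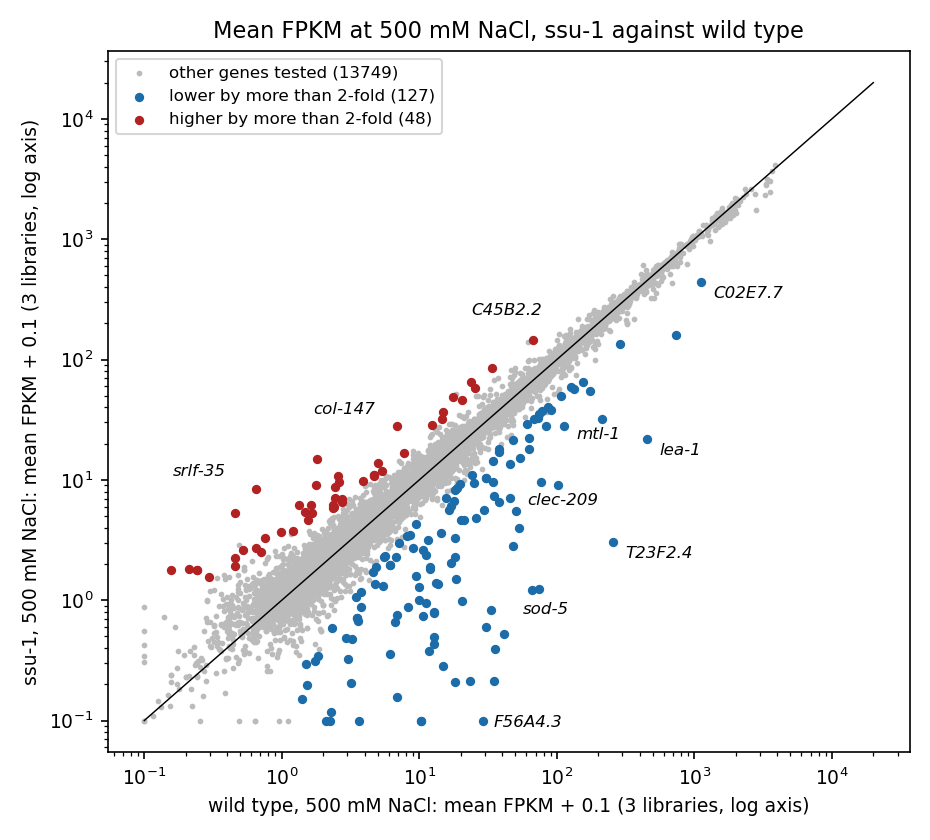
Mean FPKM + 0.1 of each gene tested in wild type (horizontal, log axis) and ssu-1 (vertical, log axis) at 500 mM NaCl, over 3 libraries each, with the 127 genes called lower by more than 2-fold in blue, the 48 called higher in red and the line of equality in black. Losses reach from T23F2.4 and lea-1 at means of 256 and 451 FPKM in wild type to genes listed at 0 in all 3 mutant libraries such as F56A4.3, at the lower edge.

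T23F2.4 showed the largest difference of all genes tested. It was at 279, 243 and 247 FPKM in wild type and at 1.32, 3.98 and 3.6 FPKM in ssu-1 at 500 mM NaCl, an 86.3-fold difference of means (log2 difference -6.09, SE 0.26, adjusted p = 1.25e-07). At 50 mM NaCl it was already lower in the mutant, at 2.84 and 1.57 FPKM against 13.7 and 10.2 FPKM in wild type (log2 difference -2.03, adjusted p = 0.0143). The difference was larger at 500 mM (interaction, the difference at 500 mM minus that at 50 mM, -4.06, adjusted p = 0.000415). lea-1 was at 463, 431 and 458 FPKM in wild type and at 21.7, 20.7 and 23.3 FPKM in ssu-1. The mutant value was thus near that of both genotypes at 50 mM NaCl, 16.7 and 18.2 FPKM in wild type and 15.2 and 17.1 FPKM in ssu-1, where the genotypes did not differ by the test (log2 difference -0.11, adjusted p = 0.58). The 20.6-fold difference at 500 mM had the smallest adjusted p of all genes tested (log2 difference -4.30, SE 0.06, adjusted p = 3.38e-11).

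Among 20 tested genes of oxidant defence, 4 fell and 0 rose, beside 2.82% lower and 2.83% higher of all genes tested. sod-5, a copper/zinc superoxide dismutase, was at 78.4, 69.4 and 75.8 FPKM in wild type and 1.35, 0.95 and 1.13 FPKM in ssu-1 (65.2-fold, log2 difference -5.14, SE 0.13, adjusted p = 2e-09). sod-3, the mitochondrial manganese enzyme, was at 30.2, 26.9 and 34.7 FPKM in wild type and 0.33, 0.73 and 0.43 FPKM in ssu-1 (log2 difference -4.40, SE 0.15, adjusted p = 1.89e-08). Neither enzyme gene exceeded 1.35 FPKM in a mutant library. At 50 mM NaCl sod-3 was lower in ssu-1 as well (0.36 and 0.32 FPKM against 3.06 and 2.1 FPKM, adjusted p = 0.00456), and sod-5 did not pass the test there (0.26 and 0.74 FPKM against 0.93 and 1.1 FPKM, adjusted p = 0.32). djr-1.2 was at 20.9, 16.8 and 16.2 FPKM in wild type and at 0.25, 0.08 and 0 FPKM in ssu-1 (log2 difference -4.09, adjusted p = 1.89e-08). ctl-3, a catalase, kept a measurable level at 6.95, 7.35 and 7.41 FPKM in ssu-1 against 37.8, 30.5 and 35.96 FPKM in wild type (log2 difference -2.11, adjusted p = 1.8e-05). The median over the 20 genes was -0.03, so most of the group was near the value of all genes, 0.02.

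Small heat shock proteins, chaperones that bind unfolded proteins, gave 4 lower and 0 higher among 16 tested genes, with a median log2 difference of -0.11. The shares over all genes tested were 2.82% lower and 2.83% higher. hsp-16.21 was at 70.2, 63.9 and 63.5 FPKM in wild type and 1.57, 1.39 and 0.38 FPKM in ssu-1 (59.1-fold, log2 difference -5.03, SE 0.20, adjusted p = 7.58e-08). Its neighbor hsp-16.20 was at 17.49, 16.53 and 19.78 FPKM against 1.66, 2.27 and 2.59 FPKM (log2 difference -2.58, adjusted p = 1.66e-06). A second adjacent pair, hsp-12.6 and hsp-12.3, fell as well, hsp-12.6 from 19.96, 14.74 and 16.08 FPKM to 2.33, 1.66 and 1.81 FPKM (log2 difference -2.61, adjusted p = 1.46e-06) and hsp-12.3 from 39.3, 20.9 and 28.2 FPKM to 5.84, 6.93 and 3.65 FPKM (log2 difference -2.22, adjusted p = 0.000459). All 4 were at 0.24 to 8.47 FPKM in the 4 libraries at 50 mM NaCl, where none differed between genotypes by the test (adjusted p = 0.482 to 0.882). The genes of each pair are alike in sequence, and reads may have been divided between them. Of 25 tested genes of larger chaperones and the unfolded protein response, 0 fell and 2 rose. hsp-60, the mitochondrial chaperonin, was at 150, 156 and 139 FPKM in ssu-1 and 109, 114 and 123 FPKM in wild type (log2 difference 0.36, SE 0.07, adjusted p = 0.00994). The other was xbp-1, a transcription factor of that response (log2 difference 0.21, adjusted p = 0.0267), whose call was lost without wild-type replicates 1 and 2 (0.0586 and 0.113) or ssu-1 replicates 1 and 3 (0.0919 and 0.12), and with median-of-ratios scaling or without the variance trend.

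**Figure D2:**
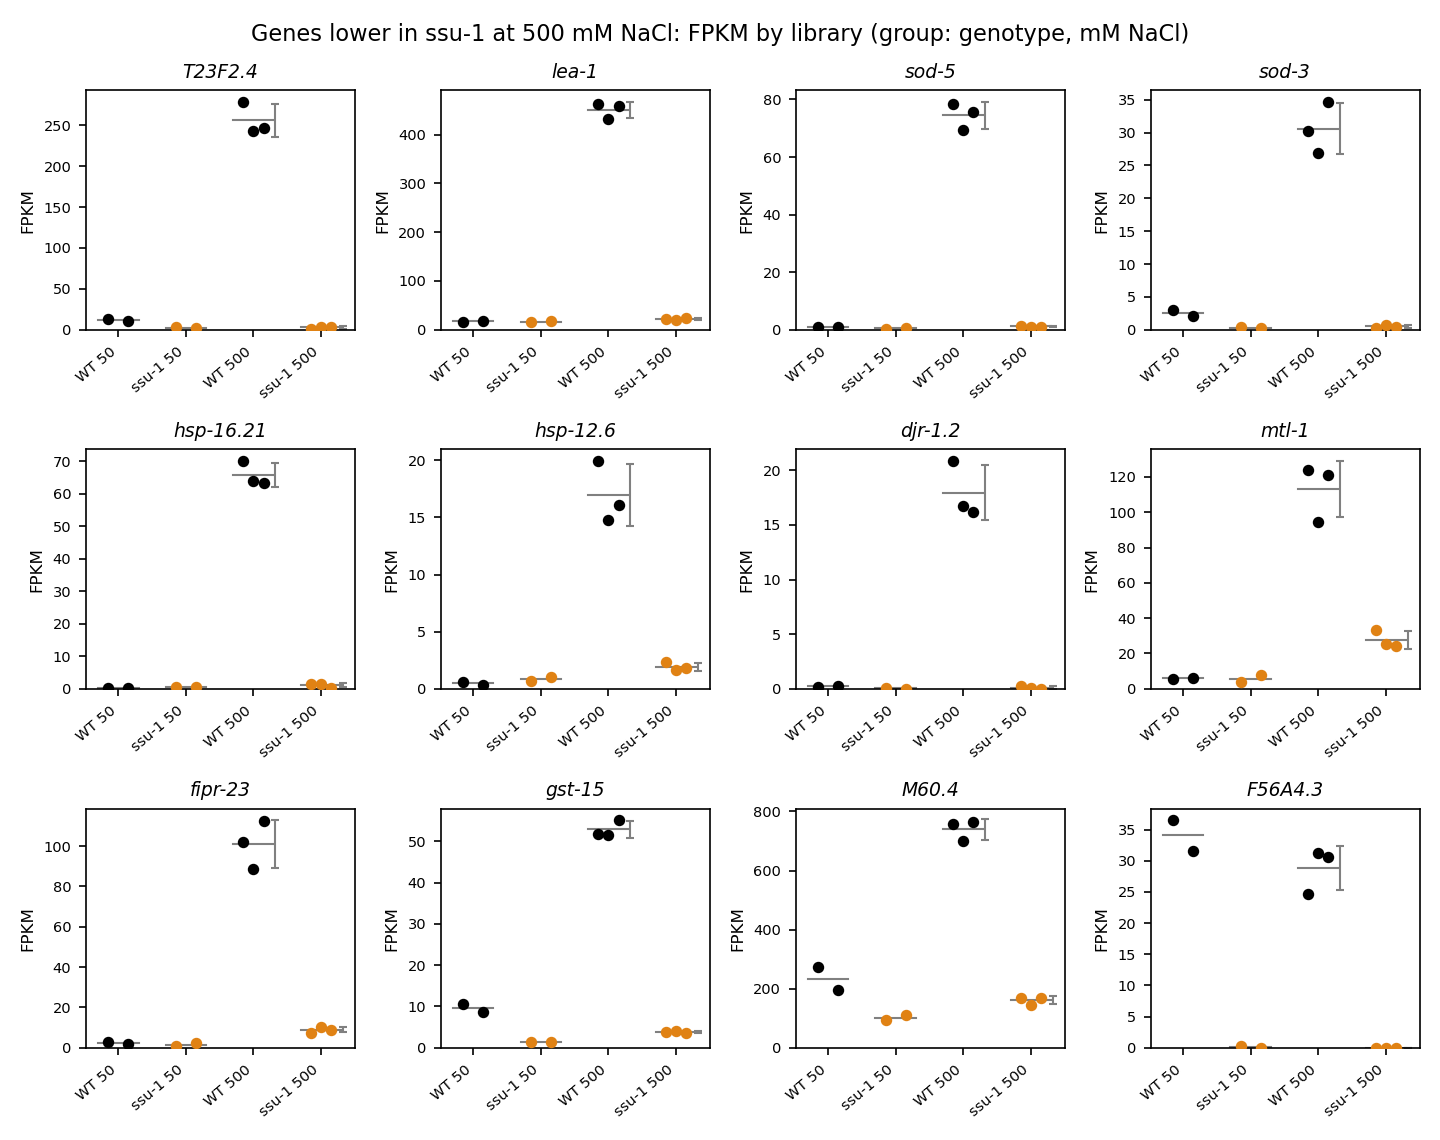
FPKM by library (points) of 12 genes lower in ssu-1 at 500 mM NaCl, in 4 groups of 2 or 3 libraries given as genotype and mM NaCl, wild type in black and ssu-1 in orange. Grey lines are means, and error bars, drawn for the groups of 3, are 1 SD. In each panel the 3 mutant libraries at 500 mM lie below the 3 wild-type libraries, and T23F2.4, sod-3, gst-15, M60.4 and F56A4.3 are lower in the mutant at 50 mM as well.

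Genes of osmolyte metabolism came next. Of 25 tested genes of glycerol and trehalose metabolism, water channels and LEA proteins, 3 fell and 0 rose, where 2.82% of all genes tested fell. Apart from lea-1 these were tre-4, a trehalase (2.97, 3.28 and 3.79 FPKM against 1.72, 1.61 and 1.42 FPKM, log2 difference -0.75, adjusted p = 0.00374). The third was tps-1, a trehalose-6-phosphate synthase (19.36, 19.01 and 20.29 FPKM against 15.2, 14.1 and 14.8 FPKM, log2 difference -0.39, adjusted p = 0.0112, 0.0517 without ssu-1 replicate 2). gpdh-1, which makes the glycerol-3-phosphate from which glycerol is formed, was at 196, 228 and 222 FPKM in wild type and 208, 223 and 234 FPKM in ssu-1. The groups overlapped and the difference was 0.05 (SE 0.08, adjusted p = 0.823), although gpdh-1 was lower in the mutant at 50 mM NaCl (2.81 and 2.21 FPKM against 4.42 and 4.7, log2 difference -0.67, adjusted p = 0.011). gpdh-2 was at 296, 287 and 281 FPKM in wild type and at 319, 335 and 364 FPKM in ssu-1, with each mutant library higher but no call (log2 difference 0.23, SE 0.07, adjusted p = 0.0721). osm-11, which encodes a secreted Notch co-ligand whose loss gives osmotic stress resistance, rose from 27.8, 29.6 and 31 FPKM to 50.3, 49.2 and 51.4 FPKM (log2 difference 0.75, SE 0.09, adjusted p = 0.000607). It was the 1 gene called among 8 tested furrow collagen and osm genes.

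The groups that follow stand beside shares of 2.82% lower and 2.83% higher over all genes tested. Genes known as targets of DAF-16 gave 7 lower and 0 higher of 21 tested, with a median of -0.10. Besides sod-3, hsp-12.6 and hsp-12.3 they included mtl-1, a metallothionein, at 124, 94.7 and 121 FPKM in wild type and 33.5, 25.4 and 24.43 FPKM in ssu-1 (log2 difference -1.99, SE 0.19, adjusted p = 0.000112). ftn-1, an iron-storing ferritin, was at 58.0, 51.01 and 52.8 FPKM against 14.7, 12.19 and 18.1 FPKM (log2 difference -1.79, adjusted p = 0.000163). These were 4.07-fold and 3.59-fold differences of means, with every mutant library below every wild-type library. The remaining members were hil-1, a linker histone gene, and mtl-2, the other metallothionein gene (log2 differences -0.49 and -0.60, adjusted p = 0.0323 and 0.0359). The call of hil-1 was lost without wild-type replicates 1 and 2 (0.108 and 0.115) or ssu-1 replicates 1, 2 and 3 (0.0721, 0.0991 and 0.12). That of mtl-2 was lost without wild-type replicates 2 and 3 (0.0802 and 0.0931) or ssu-1 replicates 1, 2 and 3 (0.0819, 0.0658 and 0.138). The dod genes, named as downstream of daf-16, went the other way, with 0 lower and 2 higher of 7 tested and a median of 0.37. Of the 2, dod-19 kept its call with each library left out (log2 differences 0.8 to 0.98). dod-24 lost it when any of the 6 libraries was left out (1.18 to 1.35, adjusted p = 0.0754 to 0.126). Of 21 tested genes of the insulin pathway 3 fell and 0 rose. daf-16 itself kept its call with each library left out. akt-1, a kinase gene (log2 difference -0.25, adjusted p = 0.0209), lost it without wild-type replicates 1 and 3 (0.0737 and 0.0512) or ssu-1 replicates 2 and 3 (0.0849 and 0.0806). ist-1, an insulin receptor substrate gene (log2 difference -0.37, adjusted p = 0.0441), lost it without wild-type replicates 2 and 3 (0.11 and 0.109) or ssu-1 replicates 1, 2 and 3 (0.0725, 0.12 and 0.156).

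Families of small secreted and antimicrobial peptides held further losses, set here beside 2.82% lower and 2.83% higher of all genes tested. Of 17 tested fipr genes, named for their relation to a fungus-induced protein, 4 fell and 2 rose, and the 4 that fell, fipr-22, fipr-23, fipr-24 and fipr-26, had log2 differences of -2.69, -3.37, -3.52 and -2.94. fipr-22 was at 212, 194 and 228 FPKM in wild type and 37.9, 26.1 and 32.6 FPKM in ssu-1 (adjusted p = 9.79e-07), and fipr-23 at 101.8, 88.6 and 112.6 FPKM against 7.53, 10.1 and 9.05 FPKM (adjusted p = 8.87e-07). fipr-22, fipr-23 and fipr-24 lie in an unbroken row of 6 protein-coding genes with C37A5.3, C37A5.5 and C37A5.6, all of which were lower by more than 2-fold (C37A5.6 was not called with a pseudocount of 0.1), and counting could have divided reads between members that are alike. Of 8 tested cnc genes, which encode caenacins, cnc-11 fell from 51.7, 41.6 and 50.2 FPKM to 2.99, 2.58 and 2.54 FPKM (17.7-fold, log2 difference -3.72, adjusted p = 1.79e-07). Of the others cnc-4 and cnc-6 fell by 1.07 and 0.97 on the log2 scale. cnc-7 rose from 1.51, 0.83 and 2.28 FPKM to 8.59, 5.42 and 4.17 FPKM (log2 difference 1.47, SE 0.27, adjusted p = 0.00994). The peptide gene nlp-29, an antimicrobial of the epidermis, was at 341, 313 and 431 FPKM in wild type and 260, 175 and 217 FPKM in ssu-1 (log2 difference -0.74, adjusted p = 0.0123). The invertebrate-type lysozyme genes ilys-2 and ilys-6 fell by 1.54 and 1.68 on the log2 scale. The lysozyme gene lys-1 rose from 29.5, 26.1 and 30.8 FPKM to 53.1, 47.2 and 47.0 FPKM (log2 difference 0.75, adjusted p = 0.00408), so the antimicrobial families moved in both directions.

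Calls in the enzyme families of detoxification were few and went in both directions. Over all genes tested, 2.82% were lower and 2.83% higher. gst-15, a glutathione S-transferase, was at 51.9, 51.5 and 55.3 FPKM in wild type and 3.91, 4.05 and 3.68 FPKM in ssu-1 (13.6-fold, log2 difference -3.47, SE 0.09, adjusted p = 1.88e-09). At 50 mM NaCl it was lower as well, at 1.51 and 1.51 FPKM against 10.6 and 8.7 FPKM (log2 difference -2.08, adjusted p = 4.12e-06). The difference was larger at 500 mM (interaction -1.39, adjusted p = 0.000326). gst-15 was the member of 41 tested gst genes with the strongest change, of which 4 fell and 2 rose. gst-10 was at 79.9, 86.9 and 93.2 FPKM against 43.2, 39.1 and 39.4 FPKM (log2 difference -1.07, adjusted p = 3.99e-05), a difference also found at 50 mM NaCl (-0.94, adjusted p = 0.00305). Of 54 tested UDP-glucuronosyltransferase genes 2 fell, among them ugt-6 (log2 difference -1.02, adjusted p = 0.000152). A further 4 rose, among them ugt-13 from 4.43, 3.25 and 4.33 FPKM to 9.25, 8.59 and 8.87 FPKM (log2 difference 0.99, adjusted p = 0.000957). Of 51 tested cytochrome P450 genes 0 fell and 3 rose. Of these, cyp-13A2 and cyp-33C7 lost the call when any of the 6 libraries was left out (adjusted p = 0.0585 to 0.161 and 0.089 to 0.156), and cyp-33C8 lost it without wild-type replicates 1 and 2 (0.0609 and 0.0718) or ssu-1 replicates 1 and 2 (0.0699 and 0.0604).

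The most expressed genes past the 2-fold limit included several for which no role is given here. C02E7.7 had the highest mean, at 1093, 1067 and 1169 FPKM in wild type and 499, 388 and 445 FPKM in ssu-1 (log2 difference -1.33, SE 0.12, adjusted p = 7.9e-05). M60.4 was at 757, 699 and 764 FPKM against 168, 145 and 170 FPKM (4.6-fold, SE of the log2 difference 0.11, adjusted p = 5.93e-07). far-3, which encodes a fatty acid and retinol binding protein, was at 333, 265 and 271 FPKM against 127.0, 118.7 and 156.2 FPKM (log2 difference -1.11, adjusted p = 0.000112). None of these groups overlapped. F55H12.4, R05D7.1 and msa-1, at means of 175, 155 and 134 FPKM in wild type, fell by 1.67, 1.24 and 1.22 on the log2 scale. At 50 mM NaCl F55H12.4 and M60.4 were lower in ssu-1 as well (log2 differences -1.38 and -1.19, adjusted p = 0.00106 and 0.00281). For F55H12.4 no change with salt was called (interaction -0.28, adjusted p = 0.504). C02E7.7, far-3, R05D7.1 and msa-1 had no call at 50 mM (adjusted p = 0.0595, 0.958, 0.112 and 0.218). For C02E7.7 the log2 difference at 50 mM was -0.76, and no change with salt was called (interaction -0.57, adjusted p = 0.223). Of 18 tested genes of fatty acid metabolism fat-6, a stearoyl-CoA desaturase, fell from 17.7 FPKM in wild type to 6.6 ± 0.562 FPKM in ssu-1 (mean ± SD, n = 3; 19.23, 13.98 and 19.74 FPKM in the wild-type libraries; log2 difference -1.28, limma adjusted p = 0.00162). fat-2, another desaturase gene, rose (log2 difference 0.62, adjusted p = 0.0219), and lost the call without wild-type replicates 2 and 3 (0.0859 and 0.0552) or ssu-1 replicates 1, 2 and 3 (0.068, 0.076 and 0.0725). Of 18 tested genes of phosphatidylcholine synthesis 0 were called by limma (5 at an unadjusted p under 0.05). Over all genes tested 2.82% were called lower and 2.83% higher, and 19.1% had an unadjusted p under 0.05. In so small a list 0 calls is near that share.

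A few transcripts were listed at 0 in every mutant library at 500 mM NaCl. F56A4.3 was at 24.8, 31.2 and 30.7 FPKM in wild type and 0 in ssu-1 (adjusted p = 1.88e-09), and it differed as much at 50 mM NaCl, at 36.6 and 31.6 FPKM against 0.23 and 0 FPKM (interaction 0.09, adjusted p = 0.877). It was also at 0 in each daf-16 library of the other experiment, so its absence was not particular to ssu-1. F14F8.8 was at 9.99, 9.09 and 11.3 FPKM in wild type and C54F6.15, named after its values were seen, at 11.4, 10.8 and 8.3 FPKM, each against 0. F14F8.8 was lower in ssu-1 at 50 mM as well (log2 difference -1.41, adjusted p = 0.0145). alh-2, an aldehyde dehydrogenase gene also named after its values were seen, was at 3.96, 3.18 and 3.54 FPKM against 0. Wild type itself was at 0 to 0.03 FPKM for alh-2 at 50 mM NaCl and at 31.6 and 36.6 FPKM for F56A4.3, so the genes differed in whether wild type expressed them without salt stress. D1086.9, at 0.11 and 0.14 FPKM in wild type at 50 mM, was at 37.4, 32.2 and 34.2 FPKM in wild type at 500 mM and 0.06, 0.13 and 0.15 FPKM in ssu-1 (adjusted p = 7.76e-10). clx-1 was at 37.82, 28.73 and 33.01 FPKM against 0.57, 0.54 and 1.08 FPKM (log2 difference -4.31, adjusted p = 1.89e-08). F15E6.4 was at 32.11, 36.04 and 38.45 FPKM against 0.87, 0 and 0 FPKM (log2 difference -4.89, adjusted p = 2.69e-07). Their wild-type libraries at 50 mM were likewise near 0, as were those of ant-1.2, which encodes a mitochondrial ADP/ATP carrier and was at 15.04, 15.22 and 14.1 FPKM against 0.25, 0.27 and 0.04 FPKM at 500 mM (log2 difference -3.74, adjusted p = 1.89e-08). C54F6.5, at 52.8, 41.4 and 28.6 FPKM in wild type and 0, 0.37 and 0.89 FPKM in ssu-1, had the widest spread among the leading losses (log2 difference -4.89, SE 0.42, adjusted p = 3.99e-05).

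Sensory and hormonal genes had calls in both directions. Of 8 tested markers of the ASJ neurons, ssu-1 and trx-1 were lower and daf-7 higher. daf-7, a TGF-beta ligand gene best known from the ASI neurons, was at 3.42, 3.23 and 3.25 FPKM in wild type and 7.6, 5.61 and 7.97 FPKM in ssu-1 (2.14-fold, log2 difference 0.89, SE 0.12, adjusted p = 0.00126). trx-1, a thioredoxin of ASJ, was at 15.2, 17.6 and 11.2 FPKM against 8.61, 9.24 and 10.02 FPKM (log2 difference -0.59, adjusted p = 0.0364). The call was lost without wild-type replicates 1 and 2 (0.104 and 0.128) or ssu-1 replicates 1, 2 and 3 (0.125, 0.103 and 0.0781). The nuclear hormone receptor gene nhr-1 was at 120, 124 and 134 FPKM in wild type and 109, 100 and 107 FPKM in ssu-1 (log2 difference -0.26, SE 0.06, adjusted p = 0.0338). This call was lost without wild-type replicates 2 and 3 (0.0877 and 0.0955) or ssu-1 replicates 1, 2 and 3 (0.0642, 0.123 and 0.0941). Among 204 tested nuclear hormone receptor genes 6 fell and 12 rose, with a median of 0.07, beside 2.82% lower and 2.83% higher of all genes tested. The steepest was nhr-221, at 6.8, 6.35 and 7.11 FPKM in wild type and 0.8, 0.31 and 0.86 FPKM in ssu-1 (log2 difference -2.24, SE 0.15, adjusted p = 3.72e-06). nhr-3 fell from 97.2, 107 and 101 FPKM to 54.3, 48.5 and 56.9 FPKM (log2 difference -0.92, SE 0.06, adjusted p = 4.66e-06). At 50 mM NaCl nhr-221 and nhr-3 were lower in ssu-1 as well (log2 differences -1.14 and -0.56, adjusted p = 0.0155 and 0.00678). The interaction was called for nhr-221 (-1.1, adjusted p = 0.0487) and not for nhr-3 (-0.36, adjusted p = 0.128).

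The genes that were higher in ssu-1 mutants had differences of at most 2.62 on the log2 scale. srlf-35 had the largest, at 0.13, 0.74 and 0.77 FPKM in wild type and 8.08, 7.67 and 9.2 FPKM in ssu-1 (log2 difference 2.62, SE 0.26, adjusted p = 0.000132). nspe-5 was at 1.37, 1.16 and 2.6 FPKM against 18.37, 9.92 and 16.44 FPKM (8.72-fold, log2 difference 2.55, SE 0.27, adjusted p = 0.000188). In both genes the wild-type libraries at 50 mM NaCl were higher than those at 500 mM, at 8.19 and 4.58 FPKM for srlf-35 and 10.8 and 5.69 FPKM for nspe-5. The same arrangement held for col-147, a cuticle collagen gene, at 127 and 83.4 FPKM in wild type at 50 mM. At 500 mM it was at 5.99, 5.57 and 8.76 FPKM in wild type and at 32.7, 26.6 and 24.1 FPKM in ssu-1 (log2 difference 1.90, SE 0.19, adjusted p = 0.000137). scl-3, a gene of the SCP/TAPS family of secreted proteins, was at 2.14, 2.1 and 3.09 FPKM against 12.03, 9.62 and 10.23 FPKM (log2 difference 1.76, adjusted p = 0.000354), with 13.3 and 7.89 FPKM in wild type at 50 mM. For these 4 genes the mutant did not differ from wild type at 50 mM by the test (adjusted p = 0.327 to 0.775).

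Others were higher than in the other 3 groups of the ssu-1 experiment, though not than wild type at 50 mM in the daf-16 experiment (means of 20.2 FPKM for dhs-23, 86.4 for numr-1 and 519.7 for C45B2.2). dhs-23, a short-chain dehydrogenase gene, was at 9.71, 7.81 and 8.38 FPKM in ssu-1 at 500 mM NaCl, against 2.22, 2.04 and 2.7 FPKM in wild type at 500 mM and 2.14 to 4.69 FPKM in the 4 libraries at 50 mM (log2 difference 1.54, SE 0.13, adjusted p = 2.81e-05). numr-1, a gene that responds to metals, was at 10.6, 8.15 and 9.6 FPKM against 3.0, 2.39 and 2.07 FPKM (log2 difference 1.58, adjusted p = 0.000995). C45B2.2 was the most expressed gene of the higher set, at 165, 134 and 136 FPKM in ssu-1 and 71.3, 49.6 and 81.5 FPKM in wild type (log2 difference 1.12, adjusted p = 0.00403). Unlike for dhs-23 and numr-1, no change of its difference with salt was called by the interaction. A further kind was higher at both concentrations. Y48G8AL.12 was at 42.8, 50.8 and 51.5 FPKM in ssu-1 against 18.08, 14.98 and 19.57 FPKM in wild type at 500 mM (log2 difference 1.42, adjusted p = 6.19e-05) and at 54.2 and 44.1 FPKM against 24.7 and 18.6 FPKM at 50 mM (1.15, adjusted p = 0.00736). fbxb-22, an F-box gene, differed by 1.94 at 500 mM and 1.75 at 50 mM (adjusted p = 0.00153 and 0.0474). Of the remaining leading genes, ZK1025.3, R05H10.1, grl-21, twk-34, R02C2.7 and str-176 differed by 2.17, 1.71, 1.45, 1.41, 1.33 and 1.31 on the log2 scale. grl-21 encodes a ground-like protein, twk-34 a potassium channel and str-176 a chemoreceptor.

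**Figure D3:**
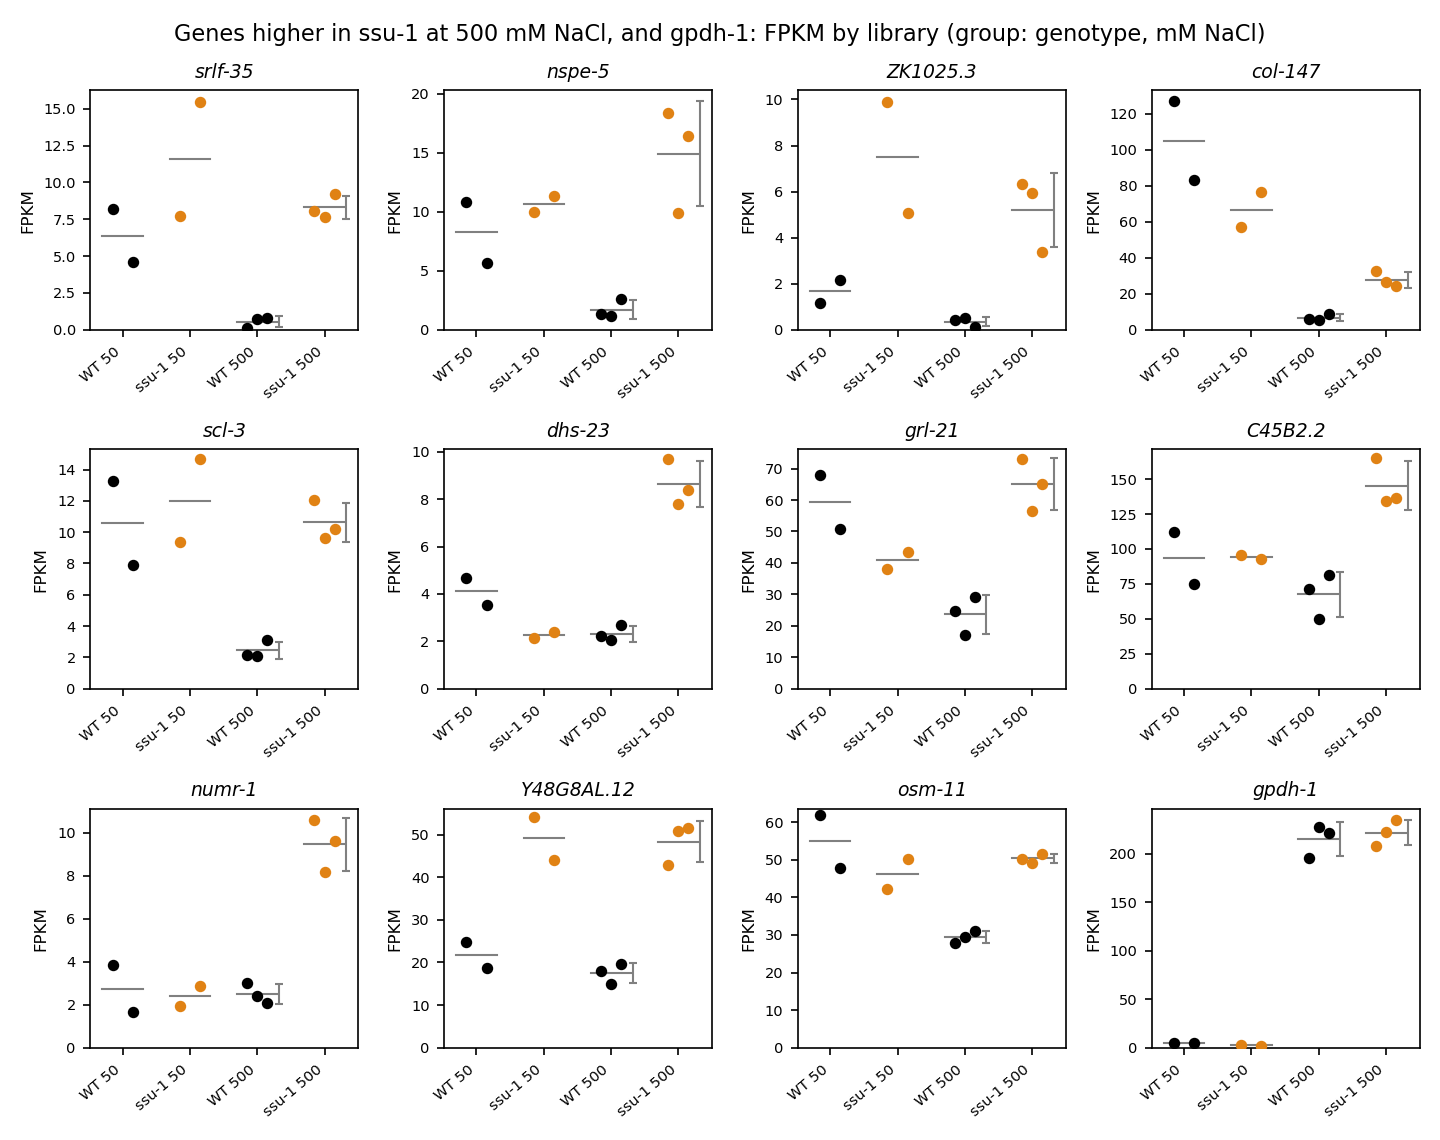
FPKM by library (points) of 11 genes higher in ssu-1 at 500 mM NaCl and of gpdh-1, in 4 groups given as genotype and mM NaCl, wild type in black and ssu-1 in orange, with means as grey lines and 1 SD as error bars for the groups of 3. The wild-type libraries at 500 mM lie lowest for srlf-35, nspe-5, col-147 and osm-11, the mutant libraries at 500 mM lie highest for dhs-23 and numr-1, and the genotypes overlap for gpdh-1 at 500 mM.

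Calls past 2-fold were few in large gene classes, and the classes were not compared with each other by a test. Over all genes tested, 0.912% were lower and 0.345% higher by more than 2-fold. Of 77 tested ribosomal protein genes 3 fell and 0 rose, where 2.82% of all genes tested fell, and rpl-41.1, the 1 of the 3 that kept its call with each library left out, fell by 0.52 on the log2 scale (adjusted p = 0.00961). Of 33 proteasome genes 0 were called by limma (2 at an unadjusted p under 0.05, beside 19.1% of all genes tested). Of 39 genes of the respiratory chain 1 was called, cox-7C (log2 difference -0.24, adjusted p = 0.0495), and its call was lost when any of the 6 libraries was left out (0.0685 to 0.182). The 89 tested collagen genes gave 6 lower and 3 higher with a median of -0.07, of which 1 and 2 were past 2-fold, and col-108 had the lowest difference (12.11, 8.56 and 8.88 FPKM against 1.48, 1.09 and 1.0 FPKM, log2 difference -2.30, adjusted p = 3.14e-06).

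At 50 mM NaCl, with 2 libraries a genotype, 67 genes were lower in ssu-1 (0.481% of the genes tested) and 23 higher (0.165%). These libraries are distinct from those at 500 mM. Of the 127 genes lower by more than 2-fold at 500 mM, 31 were also lower at 50 mM, and their median log2 difference was -1.68 at 500 mM and -0.34 at 50 mM. Of the 48 genes higher by more than 2-fold, 8 were also higher at 50 mM, and the medians were 1.24 and 0.02. The called direction was opposite at the 2 concentrations for 2 of all genes called at 500 mM, fdx-2 and F41C3.2, both named after their values were seen. fdx-2, a ferredoxin gene, was lower in ssu-1 at 500 mM (36.04, 36.54 and 37.73 FPKM against 41.56, 44.38 and 41.83 FPKM, adjusted p = 0.0338) and higher at 50 mM (35.53 and 34.76 FPKM against 28.1 and 28.01 FPKM, adjusted p = 0.0475). F41C3.2 was higher at 500 mM (22.76, 21.17 and 23.99 FPKM against 17.69, 14.9 and 18.03 FPKM, adjusted p = 0.02) and lower at 50 mM (8.58 and 8.58 FPKM against 13.1 and 14.7 FPKM, adjusted p = 0.021). At 500 mM the call of fdx-2 was lost without wild-type replicates 1, 2 and 3 (0.0588, 0.138 and 0.0557) or ssu-1 replicates 1, 2 and 3 (0.122, 0.104 and 0.0789). That of F41C3.2 was lost without wild-type replicate 2 (0.0716) or ssu-1 replicates 1 and 3 (0.0713 and 0.0933).

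The interaction, which tests whether the genotype difference itself changed with salt, was more negative at 500 mM for 96 genes (0.689% of the genes tested) and more positive for 95 (0.682%). It uses the same libraries as the difference at 500 mM. Among the 127 genes it was more negative for 74 and more positive for 1, the C-type lectin gene clec-209. This gene was at 50.9, 47.0 and 54.4 FPKM in wild type and 5.27, 5.1 and 5.8 FPKM in ssu-1 at 500 mM. At 50 mM it was at 85.8 and 62.6 FPKM against 3.27 and 2.02 FPKM (interaction 1.35, adjusted p = 0.0131). Among the 48 genes it was more positive for 22. The count of 95 fell to 39 and 34 without wild-type replicates 1 and 2 and to 27, 53 and 28 without ssu-1 replicates 1, 2 and 3, while that of 96 lay between 72 and 108 in such fits.

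**Figure D4:**
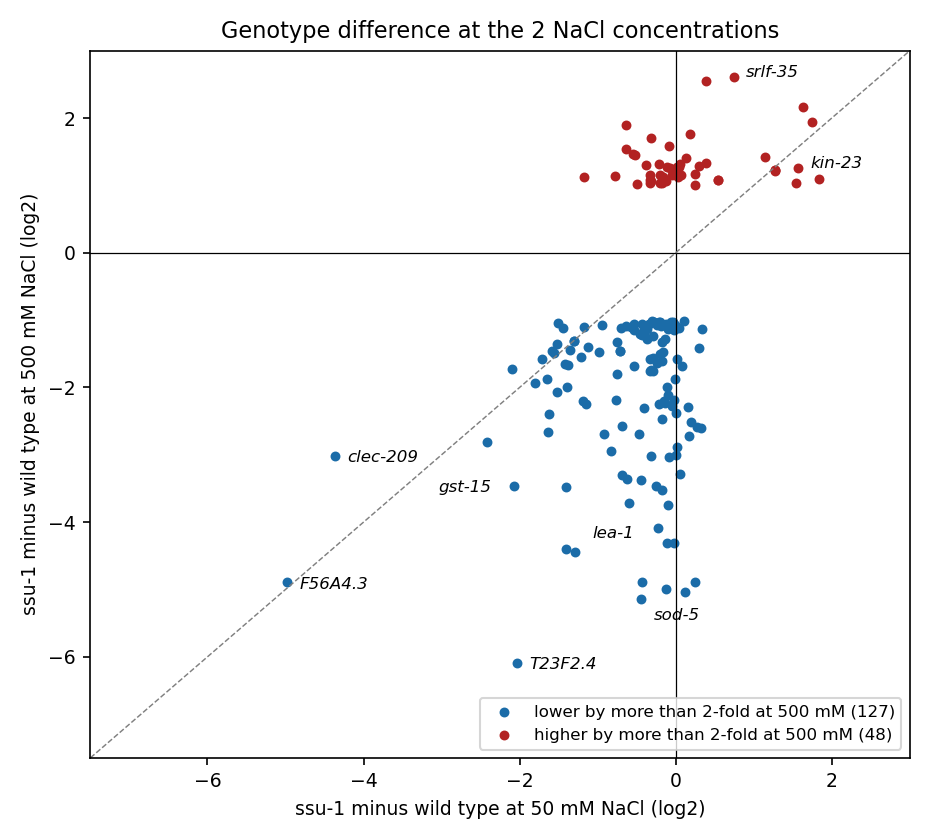
Log2 difference of ssu-1 from wild type at 50 mM NaCl (horizontal) and 500 mM NaCl (vertical) on the log2(FPKM + 1) scale for the 127 genes called lower (blue) and 48 called higher (red) by more than 2-fold at 500 mM, with the dashed line of equal differences. Most blue points lie near 0 on the horizontal axis, sod-5 and lea-1 among them, and F56A4.3 and clec-209 lie near or above the dashed line. The vertical position chose the genes.

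The daf-16 experiment has wild-type libraries of its own, so its differences can be set beside those of ssu-1 without shared samples. In daf-16 at 500 mM NaCl 1919 of 14868 genes tested were lower (12.9%) and 2429 higher (16.3%), with 353 lower (2.37%) and 54 higher (0.363%) by more than 2-fold. Of the 127 genes lower in ssu-1, 125 were tested there and 109 were lower in daf-16. The lists past the 2-fold limit shared 98 genes, 77.2% of the ssu-1 list and 27.8% of the daf-16 list. Of the genes that were higher by more than 2-fold in ssu-1, 8 of the 45 tested were higher in daf-16 and 5 were lower (lips-6, F25D1.5, T05B4.9, Y73F4A.2 and R05H10.1, of which R05H10.1 alone was not picked after its values were seen). The 2-fold lists of 48 and 54 genes shared 1 gene, 2.08% and 1.85% of the lists. This was nlp-26, a neuropeptide-like gene named after its values were seen, whose call in ssu-1 (adjusted p = 0.0385) was lost without wild-type replicates 1 and 2 (0.0704 and 0.0933) or ssu-1 replicates 1, 2 and 3 (0.0935, 0.135 and 0.0821). Wild type differed between the experiments. For 112 of the 127 genes and 40 of the 48 its mean FPKM at 500 mM was higher in the daf-16 experiment, with median ratios of 3.37 and 2.16 against 0.952 over all genes tested. A lower starting level leaves less room for a fall on the log2(FPKM + 1) scale, so the experiment and the mutant cannot be told apart in the differences between their sizes.

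Within that limit the sizes of the effects differed for named genes, by a test of the difference over all 22 libraries that called 9.0% of 15050 genes as more negative and 11% as more positive in ssu-1. Of the 127 genes the ssu-1 effect was more negative for 26 and more positive for 50. lea-1 was at 2310, 1960 and 1874 FPKM in wild type and 449, 627 and 529 FPKM in daf-16 (log2 difference -1.94, against -4.30 in ssu-1, adjusted p of the difference 5.88e-09). T23F2.4 likewise kept 129, 192 and 161 FPKM in daf-16 against 626, 511 and 522 FPKM in wild type (-1.79 against -6.09, adjusted p = 2.68e-07). Both were lower in each mutant, and the mutant level in ssu-1 was under that in daf-16. sod-5 was at 40.6, 55.9 and 39.2 FPKM in daf-16 against 654, 508 and 511 FPKM in wild type (-3.60 against -5.14, adjusted p = 0.000323). hsp-16.20 was also more negative in ssu-1 (-2.58 against -0.70, adjusted p = 0.000241). For sod-3 and hsp-16.21 no difference between the effects was called (0.43, adjusted p = 0.274, and -0.85, adjusted p = 0.0596).

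Some differences were called in one mutant and differed between the mutants by this test. F14F8.8, listed at 0 in ssu-1 at 500 mM, was at 15.7, 18.7 and 14.6 FPKM in daf-16 and 16.10, 14.24 and 22.02 FPKM in wild type of that experiment (log2 difference -0.08, adjusted p of the difference from ssu-1 4e-08). nhr-221 was at 6.03, 6.58 and 7.3 FPKM in daf-16 and 5.68, 5.88 and 6.18 FPKM in wild type (0.14, adjusted p = 5.36e-07), and its wild-type level was near that of the ssu-1 experiment. ilys-2 was lower in ssu-1 (0.3, 0.48 and 0.34 FPKM against 2.34, 4.58 and 2.43 FPKM) and higher in daf-16 (8.86, 12.99 and 10.1 FPKM against 4.57, 3.7 and 2.8 FPKM). It was the 1 gene of the 127 with opposite calls. spl-3, a gene of the sphingosine phosphate lyase family, was at 38.01, 40.61 and 40.31 FPKM in wild type and 35.54, 37.24 and 37.31 FPKM in ssu-1 (log2 difference -0.11, adjusted p = 0.336). In the other experiment it fell from 44.8, 42.4 and 45.6 to 2.57, 1.93 and 2.34 FPKM in daf-16 (-3.79, adjusted p of the difference 2.85e-13). C37A5.5, C37A5.6, ilys-6 and F14F9.2 fell in both, and more in daf-16 (differences between the effects of 3.88, 4.03, 3.99 and 3.18 on the log2 scale). Their wild-type means were 18.5, 11.9, 2.95 and 9.9 FPKM in the ssu-1 experiment and 197, 157, 105 and 79.5 FPKM in the daf-16 experiment.

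**Figure D5:**
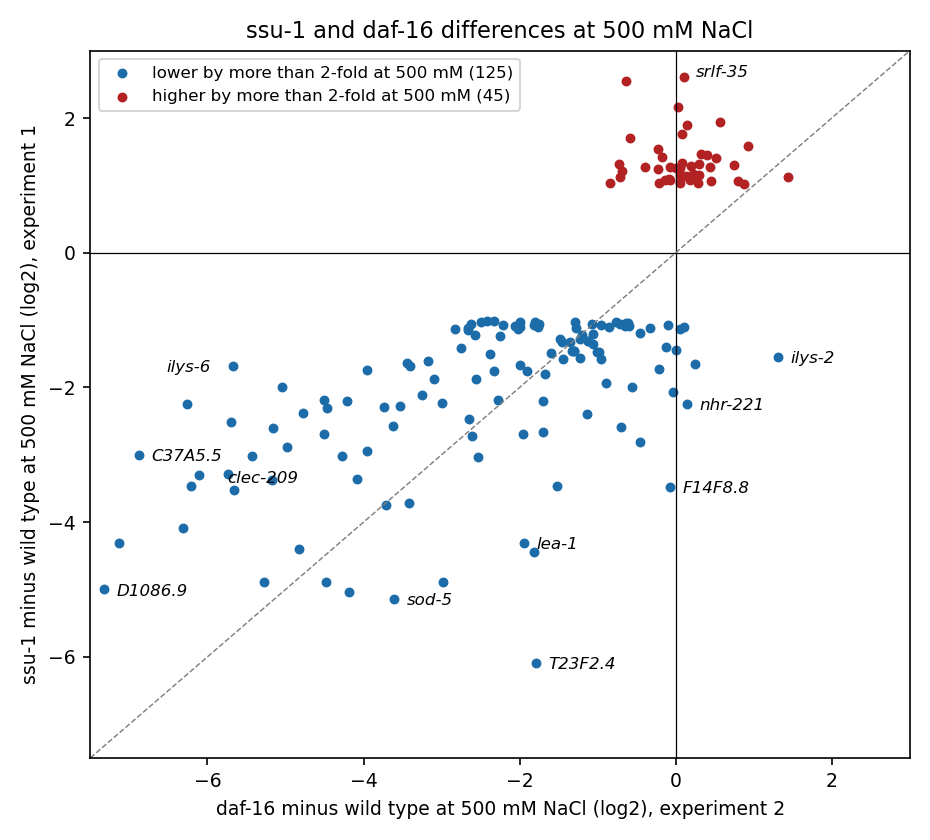
Log2 difference from wild type at 500 mM NaCl in daf-16 (horizontal, experiment 2) and in ssu-1 (vertical, experiment 1) for 125 genes lower and 45 higher by more than 2-fold in ssu-1 that were tested in both, with the dashed line of equal differences. The blue points lie mostly left of 0, with ilys-2, nhr-221 and F14F8.8 at or right of it, and the red points are spread around 0 on the horizontal axis. The vertical position chose the genes.

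Genes changed by more than 2-fold were in places neighbors on the chromosome, a feature examined after the values were seen. Of the 175 genes, 26 lay in 11 rows of adjacent protein-coding genes, and in each of the 11 rows all members had one direction. The longest row was that of the 6 C37A5 genes. Pairs that were lower included R05D7.1 and R05D7.2, F15E6.4 and F15E6.10, C54F6.15 and C54F6.6, nhr-221 and nhr-93, and ttr-25 and ttr-26, and pairs that were higher were nspe-7 and nspe-5, and ttr-27 and ttr-28.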

How the data were processed

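The authors mapped reads to the ce10 assembly with RSEM 1.2.15 and Bowtie 1.0.1 (submitters' processing notes), strand-specifically per their methods, and deposited FPKM per gene and library. Of 45461 rows, 1 without a gene name (at most 0.0425% of a library's FPKM) was left out, and 23483 of the other 45460 were 0 in all 22 libraries. Symbols and gene order came from a RefSeq table of WBcel235 (44079 identifiers matched), so no coordinates or sequences are given. limma 3.58.1 in R 4.3.3 (lmFit, eBayes with trend, two-sided) was run on log2(FPKM + 1) with all 10 libraries of the ssu-1 experiment, the 12 of the daf-16 experiment, or all 22, in place of the authors' DESeq2 on expected counts, over genes with at least 1 FPKM in 2 libraries. The test was checked on simulated data. Depth was approximated from the step between the smallest FPKM values, which is the worth of 1 fragment given a gene's length. p-values measure the spread between libraries that the series calls biological replicates.

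The compared genes, lists and rules were chosen with earlier results of these data known. Named genes are those the study names for RNA-seq, the 15 most negative and 15 most positive called differences without overlap, the 10 most expressed called genes past 2-fold, up to 4 per list by adjusted p, rol-6 and daf-16, and the 5 largest and 5 smallest differences from daf-16. Alternatives were pseudocounts of 0.1 and 5, other filters, median-of-ratios and quantile scaling, no trend, the 6 libraries alone, a replicate block, and each library left out.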

Additional observations from a re-analysis of the deposited data

Results flagged for a closer look

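For 30 of the genes named by the study, by size of the difference or by expression, the genotype difference at 500 mM NaCl differed from that at 50 mM by the interaction (limma, adjusted p under 0.05). Most were chosen for a large difference at 500 mM, which is part of the interaction, so frequent calls were built in. Over all genes tested, the interaction was more negative for 0.689% and more positive for 0.682%. Among genes with a log2 difference of -3 or less at 500 mM it was -5.15 for hsp-16.21, -5.13 for F15E6.4, -4.88 for D1086.9, -4.70 for sod-5, -4.46 for C54F6.5, -4.29 for clx-1, -4.20 for lea-1, -4.06 for T23F2.4, -3.86 for djr-1.2, -3.64 for ant-1.2, -3.35 for fipr-24, -3.15 for srlf-12, -3.12 for cnc-11 and -3.0 for sod-3. Among genes with a smaller fall it was -1.77 for fipr-22, -1.09 for far-3, -1.0 for M60.4, -0.95 for R05D7.1, -0.81 for msa-1 and -0.45 for daf-16. It was positive for genes higher in ssu-1 at 500 mM: 2.53 for col-147, 2.17 for dhs-23, 2.16 for nspe-5, 2.02 for R05H10.1, 1.96 for grl-21, 1.67 for numr-1, 1.58 for scl-3, 1.53 for str-176 and 1.28 for twk-34. For gpdh-1 it was 0.71 (adjusted p = 0.0234): the mutant was lower at 50 mM, and at 500 mM no difference was called.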

How the results depend on the processing

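The counts past 2-fold depend on the pseudocount, which sets the fold of low genes by construction: 163 and 103 genes were lower and higher with 0.1, and 81 and 13 with 5. With each of the 6 libraries left out in turn, lower genes numbered 258 to 345, higher genes 155 to 390, those past 2-fold 114 to 133 and 38 to 60, and those with a more positive interaction 27 to 140. The more positive interaction counted 59 genes with a pseudocount of 0.1 and 40 without a filter, where 20878 genes were tested. Under the replicate block it counted 62, and lower and higher genes 368 and 317. The block ended the call of 13 of 134 called named genes. The numbers do not pair the samples: deviations of same-numbered wild-type and ssu-1 libraries from their group means correlated by -0.0126, 0.124 and 0.0199 over 8256 genes. No paired analysis was possible for daf-16 because its libraries at 500 mM share no replicate numbers with wild type. Of the 134, 100 kept the call with each library left out, and no called gene changed sign. Filters, scaling, the trend and the 6 libraries alone kept each other count within 1.5 times, as the pseudocount of 0.1 and median-of-ratios scaling did for daf-16. Genes near 1 FPKM rest on few fragments.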
